A study of Homo sapiens with 4 samples.

Results

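The nuclear genes for the subunits of respiratory complexes II to V were taken by symbol from 4 RNA-seq libraries of MOLM-13 cells, a human acute myeloid leukaemia cell line. The set holds the protein-coding genes named SDHA, SDHB, SDHC, SDHD, CYC1 or CYCS and those whose symbol starts with UQCR, COX4, COX5, COX6, COX7, COX8 or ATP5. These are 52 genes of 57820 gene IDs in the deposited tables, 19263 of them protein-coding. Another 117 IDs matched the names and were left out: 115 pseudogenes, the antisense RNA UQCRB-AS1 and a long non-coding RNA beside UQCRFS1. The rule uses symbols and gene types, and no measured value.

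The GADD45g induced group was 2 libraries of MOLM-13 cells given doxycycline, labelled 1 mg/ml, over 4 days. This raises GADD45G, a growth arrest gene that cells switch on under stress. The untreated control group was 2 libraries of MOLM-13 cells labelled as having no treatment. All cells were grown in RPMI medium with fetal bovine serum, and the design text calls the libraries replicate biological experiments. The sources used here do not give the vector that drives GADD45G or say whether control cells carry it. No library of cells with doxycycline but no induced gene was analysed here, so the drug and GADD45G cannot be told apart. Library 2 of each group is the one whose title carries a suffix, and library 1 the one whose title has none.

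Complex II, succinate dehydrogenase, passes electrons from succinate to ubiquinone and is also an enzyme of the citric acid cycle. Complex III passes them on to cytochrome c, complex IV hands them to oxygen, and complex V is the ATP synthase, a rotary enzyme that turns as protons flow back through it. All complex II subunits are nuclear, whereas complexes III, IV and V each combine nuclear subunits with subunits encoded in mitochondrial DNA, and leukaemic cells of the myeloid lineage are known for a marked reliance on this pathway.

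The values are RPKM, reads per kilobase of a gene's summed exons, scaled to sequencing depth. The depths recovered from the files were 18895470 and 15968886 reads for induced libraries 1 and 2, and 18778791 and 15683931 reads for control libraries 1 and 2. GADD45G stood at 3236 and 2118 RPKM in induced libraries, against 10.5 and 0.289 RPKM in control libraries. The table of induced library 1 used here ends within a row, so genes were tested only where all 4 tables list them. Library 1 of each group stood apart in 5 epithelial markers (EPCAM, KRT8, KRT18, KRT19 and CDH1), of which all were at 0 or below 0.1 RPKM in library 2 of each group. Their summed level was 39.4 and 0.0959 RPKM in induced libraries 1 and 2, against 40.0 and 0.0311 RPKM in control libraries 1 and 2. Of 8 myeloid markers, all reached 1 RPKM in at least 1 library, while 5 fibroblast markers summed to between 0.267 and 0.469 RPKM and 2 T cell markers to at most 0.321 RPKM. The myeloid markers summed to 434 and 397 RPKM in induced libraries, against 1296 and 1004 RPKM in control libraries, most of it LYZ, with 3 markers (LYZ and FLT3 among them) below both controls, 4 (SPI1 and PTPRC among them) above both and 1 overlapping.

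Of the 52 genes, 42 were listed in all 4 tables with a mean of at least 1 RPKM and were tested, with 67 to 17494 reads per gene and library (median 1584). A gene is called lower or higher here when limma's two-sided test on log2(RPKM + 1) gave a Benjamini-Hochberg adjusted p under 0.05 over all 10771 tested genes. By that rule 15 of the 42 were lower in GADD45g induced cells and 0 were higher; across all tested genes 26.7% were lower and 12.2% higher, that is 2871 and 1314 genes. Without control library 1, 8 of the 42 were lower and 0 higher, beside 20.7% lower and 8.93% higher among all genes. At an unadjusted p under 0.05, 17 of the 42 were lower and 0 higher, beside 32.5% lower and 15.2% higher among all genes, and limma-voom on the recovered reads called 20 lower and 0 higher, beside 29.7% lower and 13.6% higher among all genes. The median log2 change of the 42 was -0.53, against -0.21 for all tested genes, and 30 of the 42 lay below that overall median.

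Other scalings moved the median of all genes by 0.15 to 0.23 on the log2 scale, which brought it to between -0.06 and 0.02. Under trimmed-mean (TMM) scaling 2046 genes (19%) were lower and 1917 (17.8%) higher, and the respiratory genes split into 10 lower and 1 higher, UQCRC1. Their median then stood at -0.28, against 0.00 for all genes. The genes SDHB, UQCRFS1, UQCRC2, COX8C, ATP5F1A, ATP5MC1 and ATP5MC2 were lower in the fit reported and under each of 17 alternatives, and COX8A, ATP5F1B and ATP5PB under each of the 4 scalings. Relative to the median of all genes, those 10 changed by between -1.32 and -0.76 on the log2 scale. The share of all tested genes that stayed lower in these ways is not given here, so these counts have no background.

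Induced values were below both control values for 25 of the 42 genes (59.5%), against 45.8% of all tested genes. They were above both for 1 gene (2.38%), UQCRC1, against 24.1% of all tested genes. Summed over the 42 genes, the level was 1635 and 1437 RPKM in induced libraries, against 2344 and 2056 RPKM in control libraries, 1.43 times lower in induced cells. In such bulk samples fewer cells of a type and less RNA per cell cannot be told apart. Between induced library 2 and control library 2, which lack the epithelial markers, the median difference of the 42 genes was -0.46 on the log2 scale, against -0.22 for all tested genes. Between the libraries numbered 1, which hold the markers, it was -0.51, against -0.20 for all tested genes. The part of those markers in any single value was not tested.

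**Figure D1:**
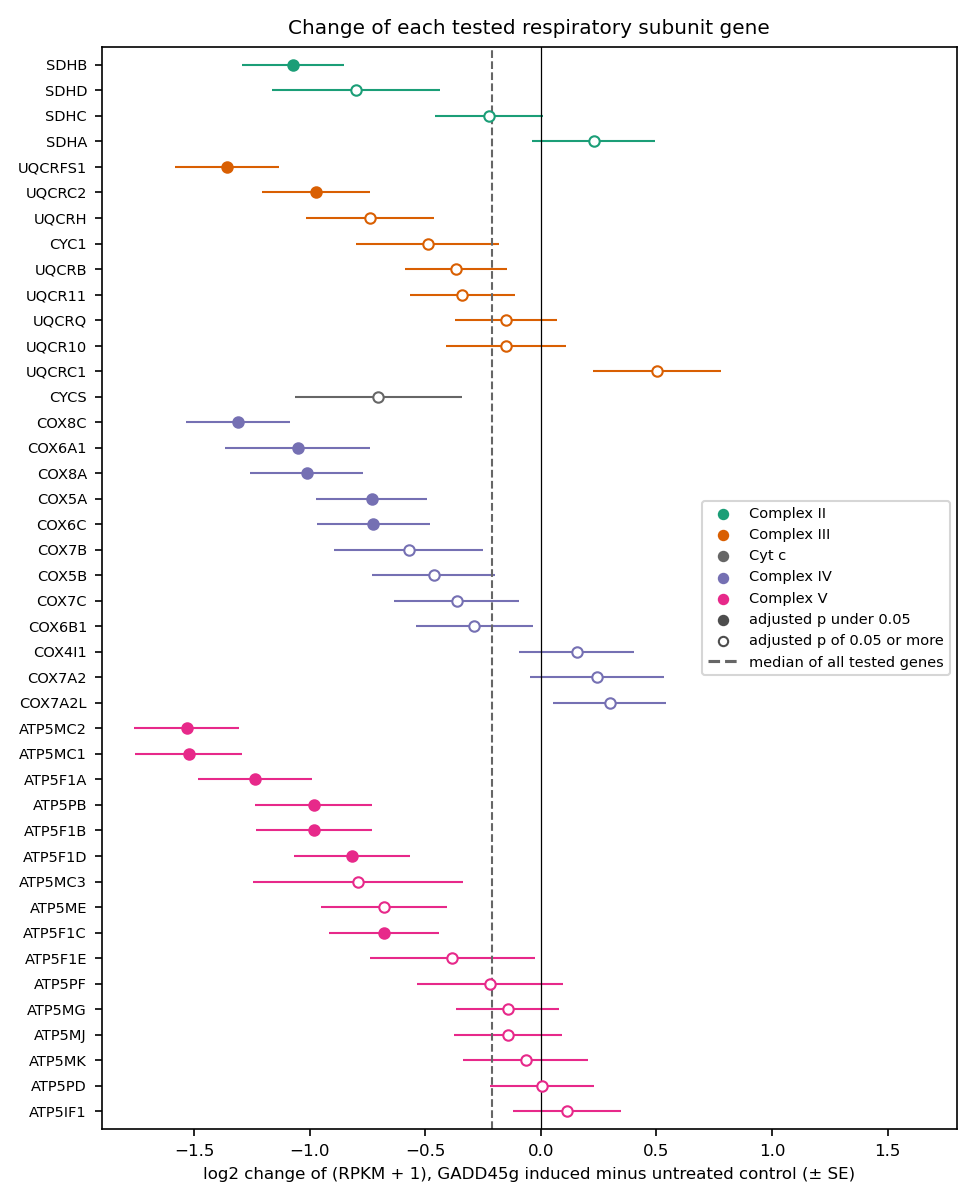
Log2 change of RPKM + 1 in GADD45g induced minus untreated control cells for each of the 42 tested genes, grouped by complex; points are limma estimates from 2 libraries a group, bars are SE, filled points have an adjusted p under 0.05, and the dashed line is the median of all tested genes. The 15 filled points all lie left of the dashed line, and every complex also holds genes close to it or right of it.

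The promoter windows of 5 genes are shown because they set 3 genes that were lower beside partners, in complexes III and V, that were not called. The sequences are RefSeq windows on GRCh38.p14, each with 250 bases before and 50 from the annotated start, written in the gene's direction. Capitals mark the motifs found, on either strand, among 4 searched: GCGC, any base and TGCGC for NRF1, CCGGAAG for GABPA, AAGATGGCG for YY1 and CACGTG, the E-box. SDHB (chr1:17053983-17054282, minus strand) and UQCRFS1 (chr19:29213102-29213401, minus strand) were lower, as was ATP5MC1 (chr17:48892537-48892836, plus strand). UQCRC1 (chr3:48609597-48609896, minus strand) and ATP5PD (chr17:75046920-75047219, minus strand) were not called.
SDHB: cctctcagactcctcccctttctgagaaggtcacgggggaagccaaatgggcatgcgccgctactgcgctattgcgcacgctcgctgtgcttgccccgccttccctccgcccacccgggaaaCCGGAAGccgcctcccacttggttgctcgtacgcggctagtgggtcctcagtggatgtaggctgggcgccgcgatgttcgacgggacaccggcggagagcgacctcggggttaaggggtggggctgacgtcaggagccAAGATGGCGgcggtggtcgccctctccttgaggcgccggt
UQCRFS1: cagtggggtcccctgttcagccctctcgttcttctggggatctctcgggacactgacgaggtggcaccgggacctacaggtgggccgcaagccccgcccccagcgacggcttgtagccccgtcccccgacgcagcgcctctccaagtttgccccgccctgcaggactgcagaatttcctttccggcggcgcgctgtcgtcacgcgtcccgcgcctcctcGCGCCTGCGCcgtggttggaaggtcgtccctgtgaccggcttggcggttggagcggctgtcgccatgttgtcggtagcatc
ATP5MC1: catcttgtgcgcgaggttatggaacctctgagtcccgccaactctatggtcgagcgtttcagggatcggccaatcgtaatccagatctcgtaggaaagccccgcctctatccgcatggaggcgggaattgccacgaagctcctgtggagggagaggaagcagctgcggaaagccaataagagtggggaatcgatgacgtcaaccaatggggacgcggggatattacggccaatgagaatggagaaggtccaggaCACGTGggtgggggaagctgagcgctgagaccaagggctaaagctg
UQCRC1: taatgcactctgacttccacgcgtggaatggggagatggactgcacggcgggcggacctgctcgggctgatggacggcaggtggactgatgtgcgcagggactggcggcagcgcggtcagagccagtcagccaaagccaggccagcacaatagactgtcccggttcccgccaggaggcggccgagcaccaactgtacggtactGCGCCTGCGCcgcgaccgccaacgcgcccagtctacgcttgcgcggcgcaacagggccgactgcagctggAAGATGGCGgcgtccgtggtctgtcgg
ATP5PD: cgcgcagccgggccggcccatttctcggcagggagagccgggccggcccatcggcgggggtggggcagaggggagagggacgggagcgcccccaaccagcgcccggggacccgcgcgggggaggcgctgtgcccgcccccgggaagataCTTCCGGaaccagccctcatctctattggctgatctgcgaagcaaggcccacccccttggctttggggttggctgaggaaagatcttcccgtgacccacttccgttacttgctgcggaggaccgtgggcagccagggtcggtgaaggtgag

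The capitals are a GABPA and a YY1 match in SDHB, an NRF1 match in UQCRFS1, an E-box in ATP5MC1, an NRF1 and a YY1 match in UQCRC1, and a GABPA match on the opposite strand in ATP5PD. Windows were found for 39 of the 52 genes. A gene is counted where any of its windows holds the motif, for these genes and for all 27305 genes with a window. Those 27305 were not limited to protein-coding or tested genes, whereas the 39 are all protein-coding. The NRF1 motif stood in 11 of the 39 (28.2%), against 6.98% of all genes and 5.78% of all 35116 windows. The GABPA motif stood in 16 of the 39 (41.0%), against 12.2% of all genes and 10.3% of all windows. The YY1 motif stood in 3 of the 39 (7.69%), against 2.14% of all genes, and the E-box in 4 (10.3%), against 8.77% of all genes. Among genes with a window, the NRF1 motif stood in 3 of 12 that were lower and 7 of 23 that were tested and not called, and the GABPA motif in 4 of 12 and 12 of 23. The YY1 motif stood in 1 of the 12 and 2 of the 23, and the E-box in 2 of the 12 and 2 of the 23. These matches describe the letters of the windows and are no measure of binding.

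In complex II, 1 of 4 genes (25%) was lower, near the 26.7% of all tested genes, and the median log2 change was -0.51. SDHB (ENSG00000117118), the iron-sulfur subunit that carries electrons towards ubiquinone, had 13.9 and 13.7 RPKM in induced libraries, against 30.4 and 29.7 RPKM in control libraries. Both induced values lay below both controls, with gaps between replicates far smaller than the gap between groups. SDHB fell by 1.07 on the log2 scale (SE 0.22, limma adjusted p = 0.0031), 2.18 times lower.

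SDHA (ENSG00000073578), the flavoprotein that oxidises succinate and binds SDHB, had 26.2 and 16.2 RPKM in induced libraries, against 18.9 and 16.1 RPKM in control libraries. The groups overlapped, and the log2 change was 0.23 (SE 0.27, limma adjusted p = 0.53), or -0.10 without induced library 1. SDHC and SDHD anchor the complex in the inner membrane. SDHC had 21.6 and 22.1 RPKM in induced libraries, against 28.9 and 22.9 RPKM in control libraries, and SDHD had 13.2 and 13.0 RPKM in induced libraries, against 38.1 and 14.4 RPKM in control libraries. For both, the induced values lay below both controls. Their log2 changes were -0.22 (limma adjusted p = 0.48) for SDHC and -0.80 (limma adjusted p = 0.11) for SDHD. SDHD depended on control library 1: without control library 2 its log2 change was -1.47 (limma adjusted p = 0.0090), while between the libraries numbered 2 the difference was -0.14.

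In complex III, 2 of 9 tested genes (22.2%) were lower, no more than the 26.7% of all tested genes, and the median log2 change was -0.37. UQCRFS1 (ENSG00000169021), the Rieske iron-sulfur protein, had 15.01 and 15.4 RPKM in induced libraries, against 42.7 and 38.3 RPKM in control libraries. The groups did not overlap, and UQCRFS1 fell by 1.36 on the log2 scale (SE 0.22, limma adjusted p = 0.00090), 2.67 times lower. CYC1, the cytochrome c1 subunit that receives electrons from the Rieske protein, had 62.3 and 32.2 RPKM in induced libraries, against 66.3 and 60.6 RPKM in control libraries. Induced library 1 lay among the controls and induced library 2 below them. The log2 change of CYC1 was -0.49 (SE 0.31, limma adjusted p = 0.23), and -0.96 without induced library 1 (limma adjusted p = 0.041).

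The core proteins UQCRC1 and UQCRC2, which are related to the mitochondrial processing peptidase and form the matrix side of complex III, had changes of opposite sign. UQCRC2 (ENSG00000140740) had 38.8 and 39.4 RPKM in induced libraries, against 82.0 and 73.5 RPKM in control libraries. It was lower in both induced libraries and fell by 0.97 on the log2 scale (SE 0.23, limma adjusted p = 0.0074). UQCRC1 (ENSG00000010256) had 163 and 105 RPKM in induced libraries, against 96.5 and 88.2 RPKM in control libraries. Both induced values lay above both controls, with induced library 1 the highest. The log2 change of UQCRC1 was 0.50 (SE 0.28, limma adjusted p = 0.18), and 0.76 with an adjusted p of 0.0499 under TMM scaling. The summed level of the pair was 201.8 and 144.5 RPKM in induced libraries, against 178 and 162 RPKM in control libraries, so that the sums overlapped.

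The small subunits of complex III, which stabilise the dimer or contact cytochrome c, had 0 of 5 tested genes called by limma. At an unadjusted p under 0.05 there was 1, UQCRH. Among all tested genes 26.7% were called lower and 12.2% higher, and 32.5% and 15.2% at that unadjusted p. With voom on recovered reads UQCRH also passed, at an adjusted p of 0.021. UQCRH, the hinge protein, had 58.3 and 45.6 RPKM in induced libraries, against 107 and 70.4 RPKM in control libraries, a log2 change of -0.74 (SE 0.28, limma adjusted p = 0.056), and of -1.04 without control library 2 (adjusted p = 0.038). Both induced values lay below both controls. UQCRB, UQCR11, UQCRQ and UQCR10 had log2 changes of -0.37, -0.34, -0.15 and -0.15, with limma adjusted p between 0.22 and 0.68. For UQCR10 and UQCRQ the direction turned under all 4 scalings, to at most 0.10. Reads of UQCRB cannot be told apart from those of UQCRB-AS1 where the models overlap, and UQCRB-AS1 itself stood at 187 RPKM in induced library 2, against 230.2 and 230.2 RPKM in control libraries. UQCRHL, a near-identical copy of UQCRH whose reads are uncertain, had 0.971 RPKM in induced library 2, against 2.06 and 1.36 RPKM in control libraries, and was not tested.

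CYCS encodes somatic cytochrome c, the carrier between complexes III and IV and a trigger of apoptosis once released. CYCS had 30.9 and 17.5 RPKM in induced libraries, against 56.0 and 26.5 RPKM in control libraries. Library 1 was higher than library 2 within each group, and the groups overlapped. The log2 change of CYCS was -0.70 (SE 0.36, limma adjusted p = 0.15). Its difference was -0.84 between the libraries numbered 1 and -0.57 between those numbered 2.

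**Figure D2:**
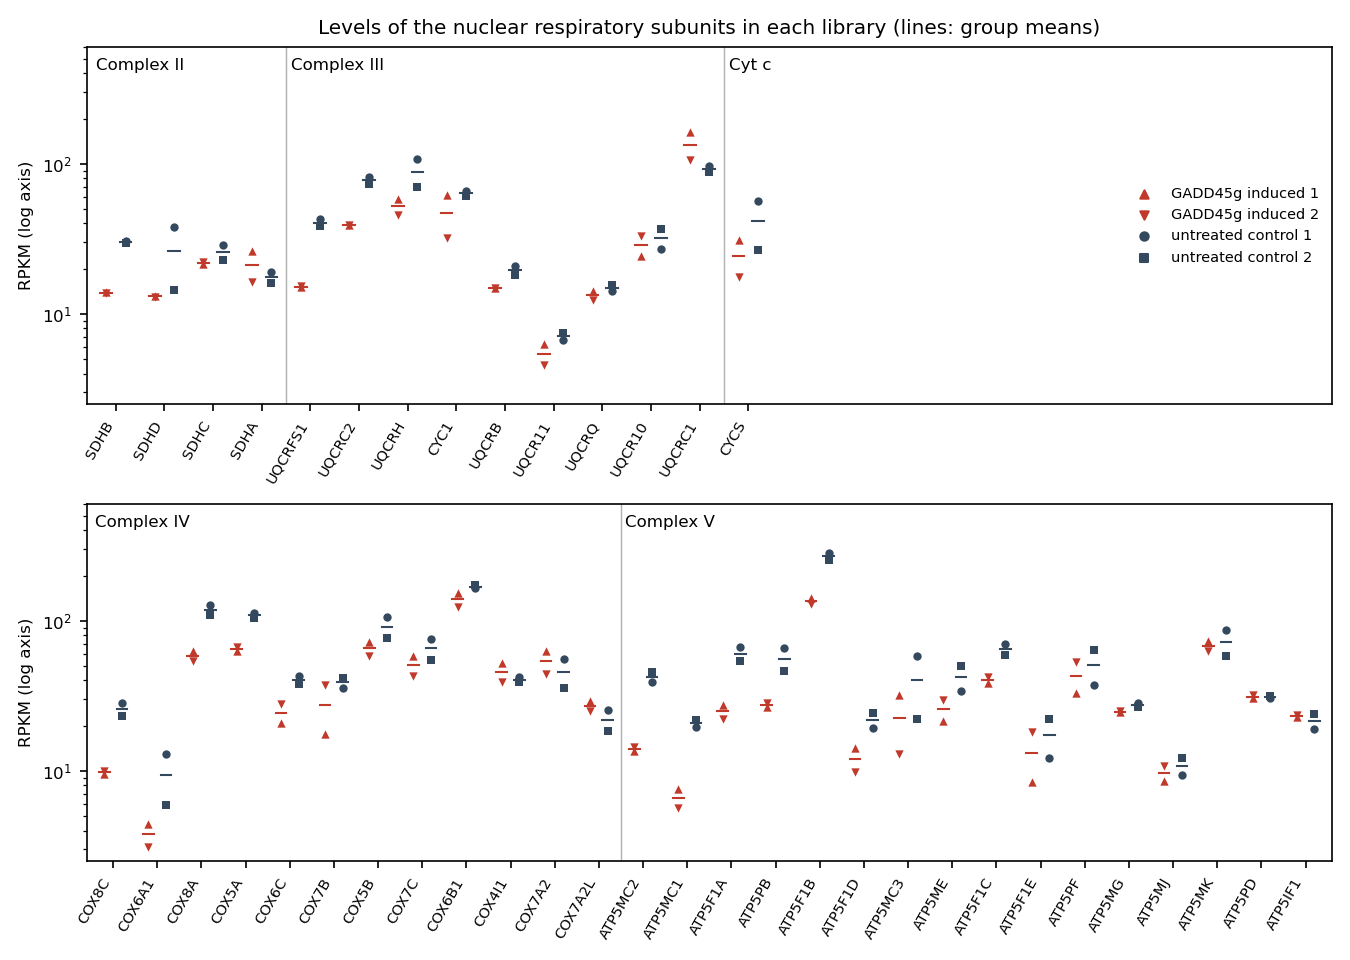
RPKM on a log axis for each tested gene in each library, with GADD45g induced libraries as red triangles left of the untreated control libraries in dark blue, and lines at the means of 2 libraries. The symbols of SDHB, UQCRFS1, UQCRC2, ATP5MC2 and ATP5F1A form separate pairs, whereas those of ATP5PD, ATP5MJ and COX4I1 overlap.

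In complex IV, 5 of 12 tested genes (41.7%) were lower, beside 26.7% of all tested genes, and the median log2 change was -0.52. Among the 11 ubiquitous subunits 4 (36.4%) were lower: COX5A, COX6A1, COX6C and COX8A. COX8A (ENSG00000176340), a small transmembrane subunit at the surface of the catalytic core, had 62.6 and 54.0 RPKM in induced libraries, against 127 and 110.0 RPKM in control libraries. The groups did not overlap, and COX8A fell by 1.01 on the log2 scale (SE 0.25, limma adjusted p = 0.0077). Its adjusted p was 0.061 without induced library 2.

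COX5A, which faces the matrix and binds a thyroid hormone metabolite, had 62.9 and 66.9 RPKM in induced libraries, against 112 and 105 RPKM in control libraries. Its induced values were both lower, and COX5A fell by 0.73 on the log2 scale (SE 0.24, limma adjusted p = 0.032). COX6C, a transmembrane subunit, had 20.7 and 27.8 RPKM in induced libraries, against 42.8 and 38.0 RPKM in control libraries, and fell by 0.73 on the log2 scale (SE 0.24, limma adjusted p = 0.037). COX6A1, the common isoform of a regulatory subunit, had 4.45 and 3.12 RPKM in induced libraries, against 12.9 and 5.93 RPKM in control libraries. It was lower in both induced libraries, with control library 1 the highest by far, and fell by 1.05 on the log2 scale (SE 0.31, limma adjusted p = 0.022). Without control library 1 the log2 changes were -0.55 for COX6A1, -0.68 for COX5A and -0.64 for COX6C, with adjusted p of 0.16, 0.091 and 0.14. COX5A was not called with any 1 library left out (adjusted p between 0.062 and 0.14). COX6C was also not called without induced library 1 (log2 change -0.52, adjusted p = 0.25) or control library 2 (-0.81, adjusted p = 0.074), and COX6A1 without induced library 2 (-0.85, adjusted p = 0.15). Under TMM scaling and median centring these 3 genes were not called.

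The other 7 ubiquitous subunits were not called. COX7B, COX5B, COX7C and COX6B1 had log2 changes of -0.57, -0.46, -0.36 and -0.29, with limma adjusted p between 0.18 and 0.40. COX6B1, at the intermembrane side, was among the most abundant of the set, with 154 and 124 RPKM in induced libraries, against 165 and 173 RPKM in control libraries. COX7B differed within the induced group, with 17.7 and 37.3 RPKM in induced libraries, against 35.9 and 41.9 RPKM in control libraries, and without induced library 2 its log2 change was -1.09 (limma adjusted p = 0.025).

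COX4I1, COX7A2 and COX7A2L had changes above 0. COX4I1, the regulatory subunit that binds ATP, had 52.6 and 38.9 RPKM in induced libraries, against 42.2 and 39.0 RPKM in control libraries. COX7A2 had 63.1 and 44.4 RPKM in induced libraries, against 55.8 and 35.6 RPKM in control libraries. COX7A2L, which joins complexes III and IV into supercomplexes, had 28.98 and 24.9 RPKM in induced libraries, against 25.3 and 18.5 RPKM in control libraries. All 3 overlapped between groups, with log2 changes of 0.15, 0.24 and 0.30 and limma adjusted p of 0.66, 0.54 and 0.37. Without induced library 1 the change was -0.060 for COX4I1, and without control library 2 it was -0.074 for COX7A2.

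Of the 6 isoforms known for restricted tissues, such as muscle, lung or testis, 1 passed the filter on low values. COX8C (ENSG00000187581), known from testis, had 9.53 and 9.99 RPKM in induced libraries, against 28.3 and 23.3 RPKM in control libraries, from 96 and 85 reads in induced libraries and 283 and 195 reads in control libraries. Both induced values were lower, and COX8C fell by 1.31 on the log2 scale (SE 0.23, limma adjusted p = 0.0011). COX8C lies within UNC79 on the same strand, which stood at 1.60 and 2.08 RPKM in induced libraries, against 1.95 and 2.89 RPKM in control libraries. Of the summed COX8A and COX8C level, COX8C made up 13.2% and 15.6% in induced libraries, against 18.2% and 17.5% in control libraries.

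The remaining restricted isoforms had few or no reads. COX6A2 and COX7B2 had 0 reads in every library, which allows up to 3 reads. COX4I2 had 8 and 1 reads in induced libraries, against 0 and 1 reads in control libraries. COX6B2 had 3 and 2 reads in induced libraries, against 7 and 8 reads in control libraries. COX7A1 had 0.473 and 1.12 RPKM in induced libraries, against 0.371 and 1.01 RPKM in control libraries, the higher value being in library 2 of each group, and made up at most 2.77% of the summed COX7A1 and COX7A2 level.

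In complex V, 7 of 16 tested genes (43.75%) were lower, beside 26.7% of all tested genes, and the median log2 change was -0.68. The summed level was 524 and 520 RPKM in induced libraries, against 878 and 817 RPKM in control libraries, 1.63 times lower in induced cells. Within the F1 head and its central stalk, which make ATP, 4 of 5 genes (80%) were lower, and the median was -0.82. The head and stalk genes summed to 229.9 and 222 RPKM in induced libraries, against 451 and 414.5 RPKM in control libraries, 1.92 times lower.

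ATP5F1A (ENSG00000152234), the alpha subunit, had 27.6 and 22.1 RPKM in induced libraries, against 66.4 and 53.5 RPKM in control libraries. It fell by 1.24 on the log2 scale (SE 0.25, limma adjusted p = 0.0026), 2.41 times lower, and the groups did not overlap. ATP5F1B (ENSG00000110955), the catalytic beta subunit, had 141 and 130.0 RPKM in induced libraries, against 283 and 255 RPKM in control libraries, the highest control level of the 42 genes. It fell by 0.98 on the log2 scale (SE 0.25, limma adjusted p = 0.010), 1.98 times lower. Its adjusted p was 0.066 without induced library 2 and 0.053 without control library 1.

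ATP5F1C, the gamma subunit that turns inside the head, had 38.2 and 42.1 RPKM in induced libraries, against 70.4 and 59.5 RPKM in control libraries, and fell by 0.68 on the log2 scale (SE 0.24, limma adjusted p = 0.044). ATP5F1D, the delta subunit of the stalk, had 14.2 and 9.85 RPKM in induced libraries, against 19.4 and 24.1 RPKM in control libraries, and fell by 0.82 on the log2 scale (SE 0.25, limma adjusted p = 0.024). Neither overlapped between groups. Both lost their call under all 4 scalings and where a control library was left out; without control library 1 the log2 change was -0.56 for ATP5F1C and -0.97 for ATP5F1D, with adjusted p of 0.14 and 0.055. Leaving out induced library 2 gave -0.74 (adjusted p = 0.11) for ATP5F1C and -0.58 (adjusted p = 0.21) for ATP5F1D, and leaving out induced library 1 gave -0.61 (adjusted p = 0.18) for ATP5F1C. ATP5F1E, the epsilon subunit, had 8.41 and 18.1 RPKM in induced libraries, against 12.1 and 22.3 RPKM in control libraries, with library 2 the higher of each group and a log2 change of -0.38 (limma adjusted p = 0.42).

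The c ring, the rotor that protons turn in the membrane, is encoded by ATP5MC1, ATP5MC2 and ATP5MC3, whose mature products are the same protein behind different import sequences. ATP5MC1 (ENSG00000159199) had 7.55 and 5.68 RPKM in induced libraries, against 19.5 and 21.97 RPKM in control libraries. ATP5MC2 (ENSG00000135390) had 13.5 and 14.3 RPKM in induced libraries, against 38.8 and 45.8 RPKM in control libraries. Each pair of induced values lay below both of its controls. ATP5MC1 fell by 1.52 (SE 0.23) and ATP5MC2 by 1.53 (SE 0.23) on the log2 scale, each with a limma adjusted p of 0.0005, or 3.14 and 3.04 times lower.

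ATP5MC3 had 31.9 and 13.0 RPKM in induced libraries, against 58.2 and 22.3 RPKM in control libraries. Library 1 exceeded library 2 by 2.46 times in the induced group and by 2.62 times in the control group, so the groups overlapped, and the log2 change was -0.79 (SE 0.45, limma adjusted p = 0.19), or -1.41 without induced library 1 (adjusted p = 0.042). ATP5MC3 made up 60.2% and 39.3% of the summed c ring level in induced libraries 1 and 2, against 49.95% and 24.7% in control libraries 1 and 2. The summed level of the 3 genes was 53.0 and 33.0 RPKM in induced libraries, against 117 and 90.0 RPKM in control libraries, 2.40 times lower.

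The peripheral stalk holds the head still while the rotor turns, and its tested genes differed among themselves. ATP5PB (ENSG00000116459), subunit b, had 26.5 and 28.1 RPKM in induced libraries, against 65.5 and 46.0 RPKM in control libraries. It was lower in both induced libraries and fell by 0.98 on the log2 scale (SE 0.25, limma adjusted p = 0.010), with an adjusted p of 0.067 without control library 1 and 0.058 without induced library 1. ATP5PD (ENSG00000167863), subunit d, had 30.4 and 31.9 RPKM in induced libraries, against 30.6 and 31.4 RPKM in control libraries. The induced values enclosed the control values, and the log2 change was 0.01 (SE 0.23, limma adjusted p = 0.98). ATP5PF, coupling factor 6, had 33.1 and 52.8 RPKM in induced libraries, against 37.2 and 64.2 RPKM in control libraries, with a log2 change of -0.22 (limma adjusted p = 0.61) and library 2 the higher of each group.

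The accessory subunits of the membrane part, which shape the dimer and the inner membrane, had 0 of 4 tested genes called by limma. At an unadjusted p under 0.05 there was 1, ATP5ME. Beside this, 26.7% of all tested genes were called lower and 12.2% higher, and 32.5% and 15.2% at that unadjusted p. ATP5ME, which voom on recovered reads also called lower at an adjusted p of 0.041, had 21.6 and 29.8 RPKM in induced libraries, against 34.0 and 49.8 RPKM in control libraries, a log2 change of -0.68 (limma adjusted p = 0.070). Its induced values lay below both controls. ATP5MG, ATP5MJ and ATP5MK had log2 changes of -0.14, -0.14 and -0.07, with limma adjusted p between 0.64 and 0.87, and their direction turned under TMM and upper quartile scaling and median centring. ATP5IF1, the inhibitor that keeps the enzyme from running backwards, had 22.7 and 23.6 RPKM in induced libraries, against 18.9 and 24.0 RPKM in control libraries. Its induced values lay between the controls, with a log2 change of 0.11 (limma adjusted p = 0.73).

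The 5 genes without a value for induced library 1 were not tested. ATP5MF, an accessory subunit, had 16.3 RPKM in induced library 2, against 32.6 and 38.2 RPKM in control libraries. ATP5PO, the oligomycin sensitivity protein of the peripheral stalk, had 12.5 RPKM in induced library 2, against 13.7 and 20.6 RPKM in control libraries. Both single induced values lay below both controls. The readthrough ATP5MF-PTCD1 had 0.613 RPKM in induced library 2, against 0.726 and 1.20 RPKM in control libraries, ATP5MGL had 2 reads in induced library 2, against 1 and 0 reads in control libraries, and UQCRHL is given above.

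Ratios of partner genes within a library do not depend on the scaling of that library. The pairs were chosen after the values were seen and are given as a description, with no test. SDHA stood at 1.88 and 1.18 times SDHB in induced libraries, against 0.622 and 0.542 times in control libraries. UQCRC1 stood at 4.20 and 2.67 times UQCRC2 in induced libraries, against 1.18 and 1.20 times in control libraries, and at 10.9 and 6.83 times UQCRFS1 in induced libraries, against 2.26 and 2.30 times in control libraries. In these pairs the induced libraries lay above both controls.

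The same held in complexes IV and V. COX4I1 stood at 0.837 and 0.581 times COX5A in induced libraries, against 0.376 and 0.372 times in control libraries, and COX7A2 at 1.01 and 0.823 times COX8A in induced libraries, against 0.439 and 0.324 times in control libraries. ATP5PD stood at 1.15 and 1.13 times ATP5PB in induced libraries, against 0.468 and 0.682 times in control libraries. ATP5IF1 stood at 0.160 and 0.182 times ATP5F1B in induced libraries, against 0.0667 and 0.0942 times in control libraries. RPKM divides by the length of all annotated exons, so the size of a ratio depends on those lengths, while its comparison between libraries does not.

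**Figure D3:**
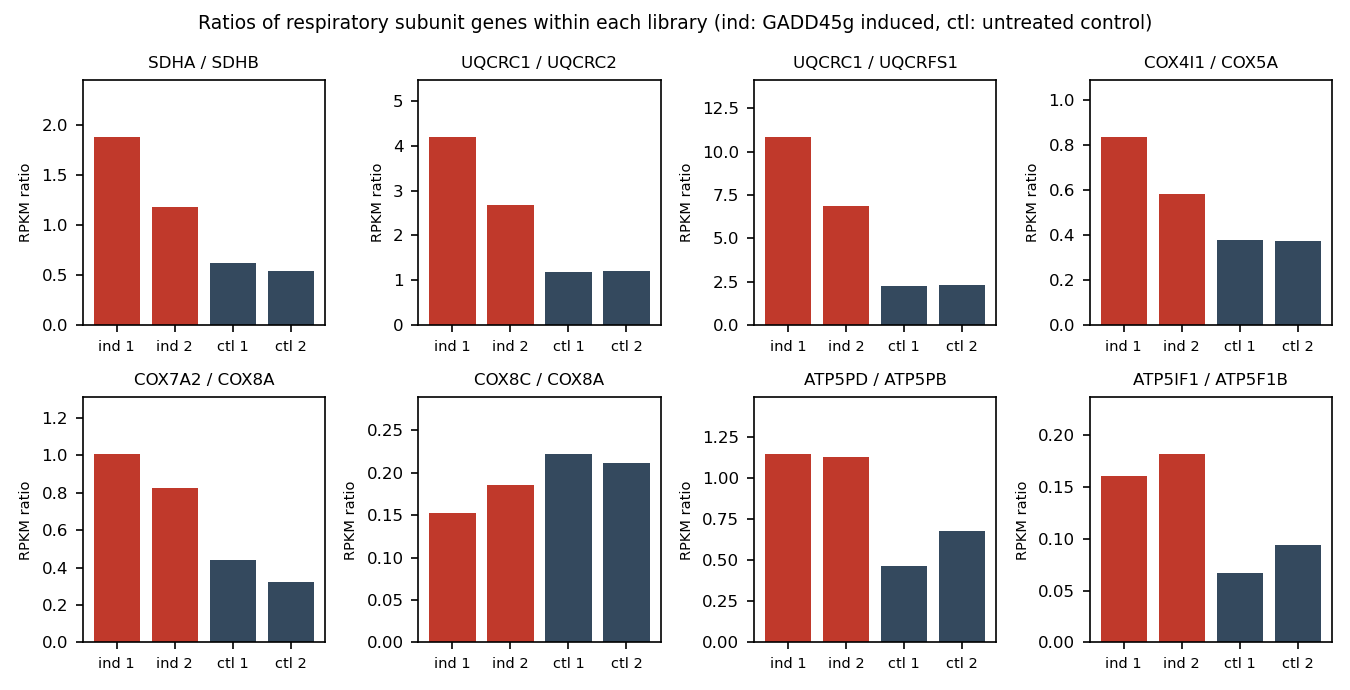
Ratio of the RPKM of 2 genes within each library, for 8 pairs chosen after the values were seen; each bar is 1 library, GADD45g induced (ind) in red left of untreated control (ctl) in dark blue, on axes that start at 0. In 7 pairs both induced bars exceed both control bars, and for COX8C over COX8A both are lower.

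The partner subunits encoded in mitochondrial DNA were among the most abundant RNAs. Of 6, 5 were listed in all tables and tested. Of those, 3 (60%) were lower, beside 26.7% of all tested genes, with a median log2 change of -0.92. MT-CO1, the catalytic subunit of complex IV, had 3375 and 3116 RPKM in induced libraries, against 6702 and 5598 RPKM in control libraries, and fell by 0.92 on the log2 scale (limma adjusted p = 0.033). MT-ATP6 and MT-CO3 fell by 1.05 and 0.99 (limma adjusted p = 0.036 and 0.047), while MT-CYB and MT-CO2 had log2 changes of -0.74 and -0.70 (limma adjusted p = 0.079 and 0.13). MT-CO1 stood at 64.1 and 80.2 times COX4I1 in induced libraries, against 159 and 143 times in control libraries. Against COX5A it stood at 53.7 and 46.6 times in induced libraries and 59.8 and 53.4 times in control libraries, which overlap. MT-ATP6 stood at 23.0 and 15.1 times ATP5F1B in induced libraries, against 22.02 and 17.1 times in control libraries, which also overlap.

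Assembly factors build the complexes without being part of them. Their counts stand beside 26.7% lower and 12.2% higher among all tested genes. For complex II, 1 of 4 tested factors was lower and 0 higher (median -0.25): SDHAF4, which acts on SDHA, fell by 0.68 on the log2 scale (limma adjusted p = 0.037). For complex III, 3 of 6 were lower and 1 higher (median -0.50). BCS1L, which inserts the Rieske protein UQCRFS1, fell by 1.22, and LYRM7, the chaperone of UQCRFS1, by 1.35 on the log2 scale (limma adjusted p = 0.0013 and 0.0016). TTC19, which clears fragments of UQCRFS1 from complex III, rose, with 36.0 and 30.6 RPKM in induced libraries, against 17.0 and 12.2 RPKM in control libraries, a log2 change of 1.15 (SE 0.25, limma adjusted p = 0.0039).

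For complex IV, 7 of 18 tested factors (38.9%) were lower and 0 higher (median -0.55), beside 26.7% lower and 12.2% higher among all tested genes. LRPPRC, which stabilises mitochondrial messenger RNAs, had 7.89 and 8.65 RPKM in induced libraries, against 45.6 and 40.6 RPKM in control libraries. It fell by 2.25 on the log2 scale (SE 0.22, limma adjusted p = 4.07e-05), the lowest change of log2(RPKM + 1) among the pathway genes listed here. In RPKM, LRPPRC was 5.21 times lower, and PPARGC1A, at far lower levels, 6.76 times lower. COA7 and COA4 fell by 1.83 and 1.44 on the log2 scale (limma adjusted p = 0.00019 and 0.00067). For complex V, 1 of 4 was lower and 0 higher (median -0.22): TMEM242 fell by 0.72 (limma adjusted p = 0.036).

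Of 11 regulators of respiratory genes, 5 (45.5%) were lower and 0 higher, beside 26.7% and 12.2% of all tested genes. Their median log2 change was -0.59. The coactivators PPRC1 and PPARGC1A fell by 1.64 and 1.23 on the log2 scale, and TFB2M, a mitochondrial transcription factor, by 1.35 (limma adjusted p = 0.0012, 0.0014 and 0.0010). PPARGC1A was low throughout, with 0.332 and 0.274 RPKM in induced libraries, against 1.90 and 2.20 RPKM in control libraries. NRF1, GABPA and YY1, whose motifs were searched, were not called. They had log2 changes of 0.04, -0.44 and -0.59, with limma adjusted p of 0.91, 0.15 and 0.054. The E-box is not the motif of 1 factor alone. MYC, known to bind it, had 1.59 and 1.07 RPKM in induced libraries, against 35.1 and 42.9 RPKM in control libraries. MYC was lower, with a log2 change of -4.10 (SE 0.23, limma adjusted p = 1.05e-06). A part of MYC in the respiratory genes was not tested.

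Complex I, the most similar group of genes, had 11 of 37 tested subunits (29.7%) lower and 0 higher, with a median of -0.39. Complexes II to V had 15 of 42 (35.7%) lower and a median of -0.53. Among all tested genes 26.7% were lower and 12.2% higher. The difference between the groups of genes was not tested. In complex I the 3 smallest adjusted p were those of NDUFS3, NDUFAB1 and NDUFB10, which fell by 1.16, 1.12 and 0.93 on the log2 scale (limma adjusted p = 0.0022, 0.0061 and 0.012). NDUFA4, which is counted here by its name although its product is now placed in complex IV, had 25.9 and 31.8 RPKM in induced libraries, against 25.8 and 28.1 RPKM in control libraries.

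**Figure D4:**
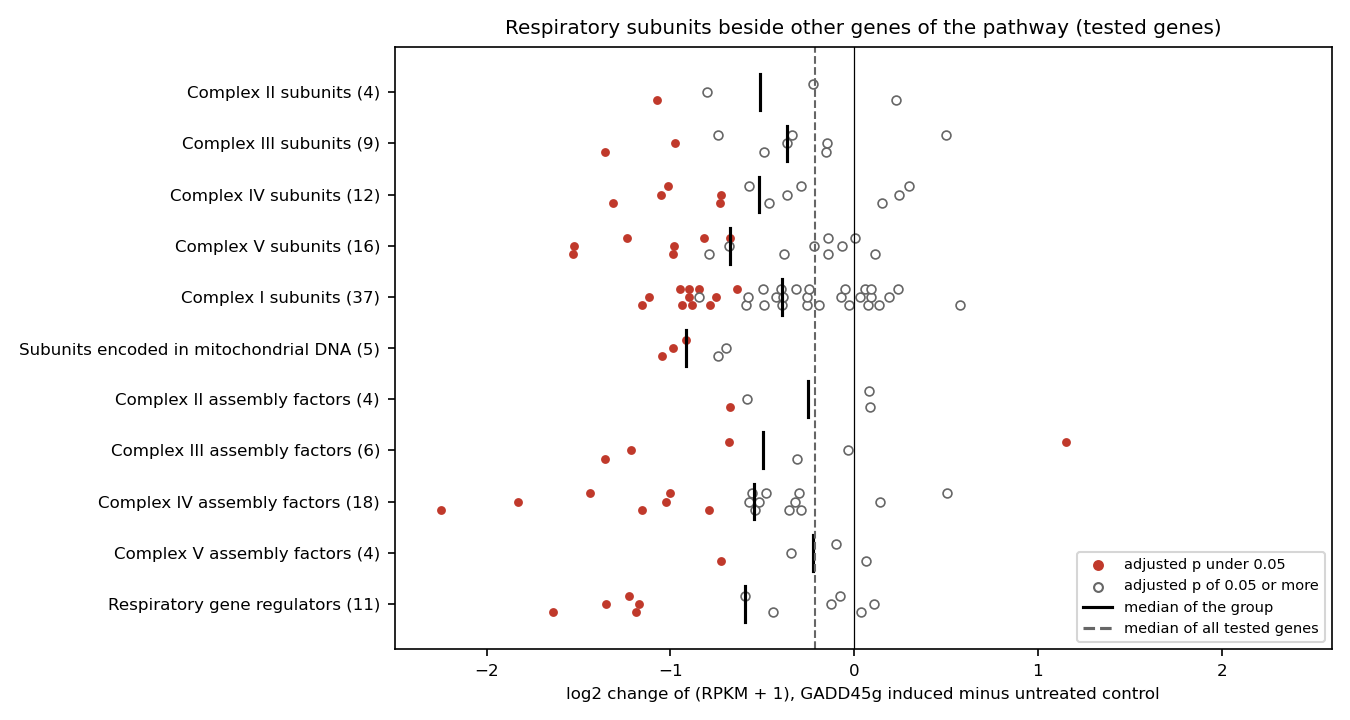
Log2 change of RPKM + 1, GADD45g induced minus untreated control, for the tested genes of each group (their number in parentheses); filled points have a limma adjusted p under 0.05, bars mark the median of the group and the dashed line that of all tested genes. Filled points lie left of the dashed line in every group, and the only one right of 0 is TTC19, at 1.15.

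Across replicates, 19 of the 42 genes (45.2%) were higher in library 1 than in library 2 of both groups, against 28.3% of 10640 tested genes with reads in every library. The opposite order held for 9 of the 42 (21.4%), against 27.0% of those genes. A gap of at least 1.5 times separated the control libraries for 8 genes and the induced libraries for 8 genes. Of the 42 tested genes, 17 overlap another protein-coding gene in the annotation. Among the 15 called genes 6 do (COX6A1, COX6C, COX8A, COX8C, ATP5F1A and ATP5PB), 3 of them on the same strand (COX6A1, COX8A and COX8C). Reads in a shared stretch cannot be assigned to 1 gene.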

How the data were processed

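The 2 GADD45g induced and 2 untreated control libraries were grouped by their treatment labels. The genes and gene lists were chosen with earlier results of these data known. The authors deposited RPKM values per the file headers, with a row for each Ensembl gene ID. TopHat, Cuffnorm, Cuffdiff and hg19 are named in the submitters' processing notes, without roles. Neither strand nor RNA selection is stated in these sources. A gene name table gave symbols for 51996 of 57820 IDs. The table of induced library 1 as used here lists 27332 IDs.

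Low RPKM values came in steps of 1 read (tolerance 0.005 reads), which gave the depths and the reads per gene for all but 1 of 12022 IDs tried, with summed exon lengths identical to GENCODE 29 for 7392 and solved from the values for 4629. One read per kilobase was worth 0.0529 to 0.0638 RPKM. Where 0 reads were seen, up to 3 are allowed, for counting error only.

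After summing rows that share a symbol and keeping means of 1 RPKM or more, log2(RPKM + 1) was compared with limma (version 3.58.1, R 4.3.3; lmFit, eBayes with trend; residual degrees of freedom 2, prior degrees of freedom 8.72), two-sided, with Benjamini-Hochberg adjustment over 10771 genes. Changes on this scale understate those of low genes. With 2 against 2 libraries an exact permutation test of 1 value cannot go below p = 0.333. The fit was also run on simulated data with known changes and independent libraries. Such data lack the correlation of same-numbered libraries given below, so they cannot check the fit for it. Named genes were GADD45G, all complex II and cytochrome c genes, in complexes III to V the 3 smallest adjusted p and the extreme changes, isoform sets, ATP5IF1, genes not called or called higher, and up to 3 genes of each other list. COX5A, COX6C, ATP5PB, ATP5F1B, ATP5F1C, ATP5F1D, MT-CYB, MT-CO2, NRF1, GABPA, YY1, MYC, NDUFA4, UNC79 and UQCRB-AS1 fall outside this rule and were named after their values were seen. The 17 alternatives varied pseudocount, filter, scaling, prior, block, libraries and the use of reads (voom).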

Additional observations from a re-analysis of the deposited data

How the results depend on the processing

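Of the 42 respiratory genes, 7 were lower in the fit reported and under all 17 alternatives, and 0 were called in opposite directions. The share of all tested genes that stayed lower under every setting is not given here, so that count has no background. Without the filter on low values, 2462 of 20689 genes were called, against 4185 in the fit reported. Of the respiratory genes 8 were then lower (7.92% of all genes were), against 15. In the other lists of the pathway 8 genes were called, against 21 in the fit reported (complex I left out). The median log2 change of the respiratory genes was -0.35 under upper quartile scaling, -0.28 under TMM scaling, -0.40 under quantile normalization and -0.30 under median centring, against -0.53. With 1 library left out in turn, 2597 to 3582 genes were called in all, 8 to 13 respiratory genes, 12 to 19 genes of the other lists, and the median lay between -0.58 and -0.41. The fewest respiratory genes (8) came without control library 1, and the 12 of the other lists without induced library 2 or control library 1; the lone library of a group is then assumed to vary like the other group. Robust and untrended priors, other pseudocounts and a filter at 5 RPKM gave 15 to 20 respiratory genes lower, beside 26.4% to 29.5% of all genes. Voom on the recovered reads and the comparison of the libraries numbered 2 were chosen after seeing the data; voom called 4652 genes, 20 of them respiratory.

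Of the 42 genes, 13 changed direction under at least 1 alternative, none of them called in the fit reported, and the cause was not tested. Under TMM scaling the log2 change was 0.11 for ATP5MG, 0.095 for ATP5MJ, 0.19 for ATP5MK, 0.032 for ATP5PF, 0.024 for SDHC, 0.10 for UQCR10 and 0.091 for UQCRQ. Under median centring it was 0.088 for ATP5MG, 0.091 for ATP5MJ, 0.17 for ATP5MK, 0.012 for ATP5PF, 0.0085 for SDHC, 0.083 for UQCR10 and 0.082 for UQCRQ. Under upper quartile scaling it was 0.031 for ATP5MG, 0.024 for ATP5MJ, 0.11 for ATP5MK, 0.026 for UQCR10 and 0.019 for UQCRQ. Under quantile normalization it was 0.051 for ATP5MJ, 0.0042 for ATP5MK, 0.012 for UQCR10 and 0.0017 for UQCRQ. With 1 library left out, it ranged from -0.89 to 0.13 for ATP5F1E, from -0.053 to 0.28 for ATP5IF1, from -0.31 to 0.024 for ATP5MJ, from -0.35 to 0.22 for ATP5MK, from -0.025 to 0.038 for ATP5PD, from -0.61 to 0.16 for ATP5PF, from -0.060 to 0.37 for COX4I1, from -0.074 to 0.56 for COX7A2, from -0.10 to 0.56 for SDHA and from -0.37 to 0.067 for UQCR10.

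The labels give same-numbered libraries nothing in common but the presence or absence of a suffix in their titles. In the data, the libraries numbered 1 also share the epithelial markers and the greater depth. Deviations of same-numbered libraries correlated at r = 0.35 over 10771 genes and r = 0.61 over the 42, which share depth and library. With the replicate number as a block, 4987 genes were called, and 20 respiratory genes were lower (31.5% of all genes were), adding SDHD, UQCRH, CYCS, ATP5MC3 and ATP5ME. Depth limits the isoforms COX4I2, COX6B2 and COX7A1, at 0 to 18 reads a library.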
